A study of Gossypium hirsutum with 9 samples.

Results

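The comparison described is that of cotton ovules cultured for 5 days on 150 mM glucose with ovules cultured for 5 days on 50 mM glucose. It uses 6 of the 9 RNA sequencing libraries of the series, 3 labelled GLC5_150 and 3 labelled GLC5_50, taken by those labels and not by their values. The comparison itself was chosen with earlier results of these data known. All ovules were of Gossypium hirsutum strain TM-1, the standard genetic line of upland cotton. The remaining 3 libraries, from ovules on 300 mM glucose for 5 days, entered no test and are used only where their level is named. The labels do not state that replicates are independent cultures, so p-values reflect the scatter of the 3 libraries of a group, part of which may be technical. The labels name no osmotic control, so a response to glucose as a sugar and a response to a stronger solution cannot be told apart.

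Each cotton fibre is an outgrowth of a single epidermal cell of the ovule, and young ovules can be kept in culture on a defined medium where they go on forming fibres. The sugar of that medium is the carbon source for growth and wall synthesis. In plants glucose also acts as a signal, sensed in part through hexokinase, and is known to act together with hormones. Among these is brassinosteroid, a plant steroid that promotes cell elongation and that the title of the series names. The question here is which transcripts differ between a low and a middle supply of glucose.

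The libraries held 18318653 to 18881646 recovered reads at 150 mM and 18330981 to 19140279 at 50 mM. Levels are FPKM, that is reads scaled by the length of the gene and a library-size term of the authors. The 150 mM libraries had 48454 to 48933 genes at an FPKM of 1 or more, and the 50 mM libraries 47826 to 48445. Within a group the libraries correlated at 0.954 to 0.971 across genes at 150 mM and at 0.966 to 0.975 at 50 mM, a description over genes, which are not replicates. None of the gene IDs is paired with a name or a description in the sources used here, so levels are given without gene functions, and the labelled tissue could not be checked against marker genes.

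A large part of the measured transcriptome differed between the glucose levels, in both directions. Tested were the 49529 genes that reached an FPKM of 1 in 3 or more of the 6 libraries. Of these, 16548 (33.4%) passed the test, of which 8771 (17.7%) were higher and 7777 (15.7%) were lower at 150 mM. The test was limma on log2(FPKM + 0.5), with Benjamini-Hochberg adjustment over all 49529 genes and a threshold of 0.05, and a gene past it is called. Without adjustment, 21900 genes had a p under 0.05. The RNA is that of whole ovules, where fewer cells of a type and less RNA per cell cannot be told apart.

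Most of the called changes were moderate. The median log2 change was 0.82 among genes called higher and -0.78 among genes called lower, beside 0.02 over all tested genes. Of the called genes, 3366 rose by 2-fold or more (6.80% of tested genes) and 2762 fell by as much (5.58%). With 0.1 added to each FPKM these numbers were 3840 and 3049, and with 1 added 2756 and 2387. In 1403 genes the whole 95% interval of the change lay above 2-fold higher, and in 1311 it lay beyond 2-fold lower. These intervals are for each gene alone and are not adjusted for the number of genes.

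For many genes the data also limit how large a change could be on the scale of the fit, which adds an offset to each FPKM. The offset makes the change of a scarce gene smaller than the change of its FPKM. For such genes an interval inside a given fold therefore does not bound the change of FPKM. The 95% interval lay inside 2-fold either way in 34743 genes (70.1% of those tested) and inside 1.5-fold in 18626 (37.6%). Of these 18626, 801 were called, so small changes could pass the test. Among the 32981 genes not called, 4500 had an interval that reached 2-fold or more, and for them a change of that size could not be told from none.

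The largest changes were falls more often than rises. Changes of at least 8-fold on the log2(FPKM + 0.5) scale were called in 62 genes that rose and 134 that fell. Their median FPKM was 18.8 at 150 mM and 1.29 at 50 mM for the genes that rose, and 1.81 at 150 mM and 26.9 at 50 mM for those that fell. In 27 of the 134 falling genes the mean FPKM at 50 mM was 100 or more, and in 9 of the 62 rising genes the mean at 150 mM was. With limma-voom on the recovered reads, where an offset is added to reads and not to FPKM, 217 rose and 347 fell by at least 8-fold. Without replicate 2 of the 150 mM group, 72 rose and 215 fell.

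At 4-fold 398 genes rose and 651 fell on the log2(FPKM + 0.5) scale. Falls also outnumbered rises with a pseudocount of 0.1 (767 rose and 944 fell) or 1 (242 and 461) and with scaling to recovered reads (439 and 621), but not in the limma-voom fit (976 and 930). Of all 1071 genes with an estimated change of at least 4-fold either way, 22 were not called.

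**Figure D1:**
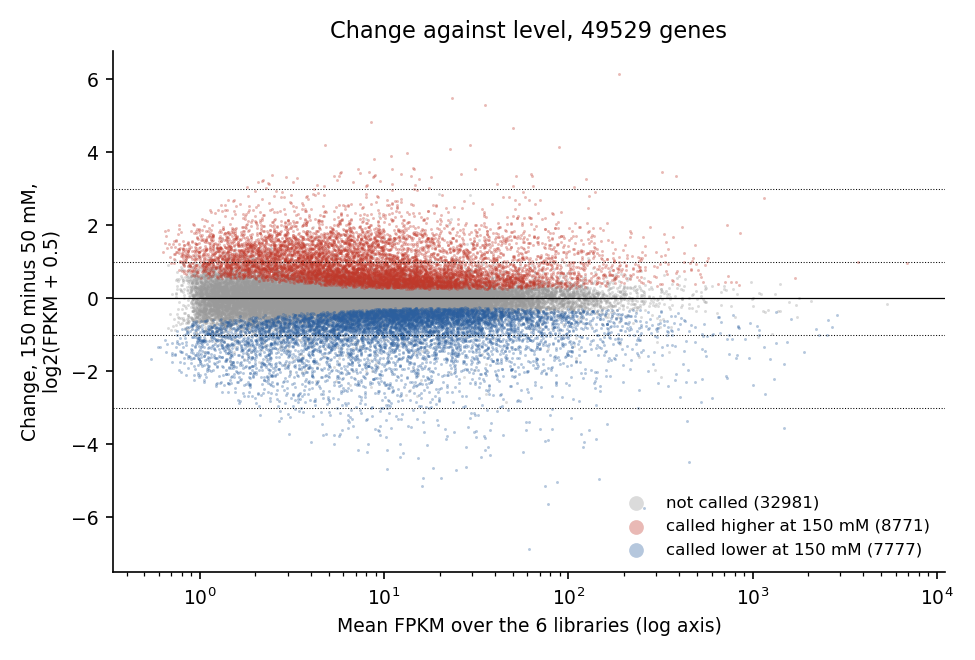
Change of each tested gene between 150 and 50 mM glucose on the log2(FPKM + 0.5) scale, against its mean FPKM over the 6 libraries on a log axis. Red points are the 8771 genes called higher at 150 mM, blue points the 7777 called lower and grey points the rest; dotted lines mark 2-fold and 8-fold, and the points beyond 8-fold lie more often below than above 0.

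The overlap of single libraries describes the same 6 libraries in another way. In 49.2% of the tested genes the 3 values at 150 mM did not overlap the 3 at 50 mM, with 26.0% higher and 23.2% lower. The spread between libraries was of like size in both groups, with a median SD of 0.171 at 150 mM and 0.157 at 50 mM on the log2 scale, and it was the larger at 150 mM in 54.2% of genes.

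Called genes carried a large part of the messenger pool. The genes called higher took 26.6%, 25% and 26.9% of the recovered reads in replicates 1 to 3 at 150 mM, and 13.7%, 13.2% and 14.6% at 50 mM. The genes called lower took 16.8%, 17.6% and 16.8% at 150 mM, and 31.0%, 33.0% and 29.9% at 50 mM. Since the genes were chosen on these libraries, this describes how much of the pool the calls cover. In the 300 mM libraries, which did not choose them, the genes called higher at 150 mM took 26.7%, 21.9% and 21.3% of reads, and those called lower took 16.0%, 19.8% and 20.4%. Between 53.4% and 56.8% of the reads of each library at 150 or 50 mM fell on tested genes that were not called.

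**Figure D2:**
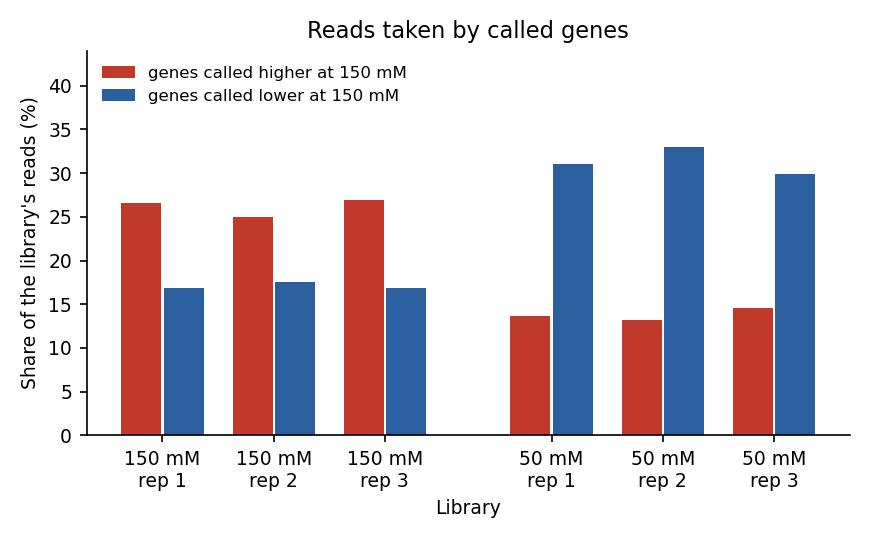
Share of each library's recovered reads, in percent, that fell on genes called higher (red) and called lower (blue) at 150 mM, for the 3 libraries at 150 mM on the left and the 3 at 50 mM on the right. At 150 mM the genes called higher took 25% to 26.9%, and at 50 mM the genes called lower took 29.9% to 33.0%.

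Sorted by mean FPKM at 50 mM, the calls were mostly falls among abundant genes and mostly rises among scarce genes. Of 1415 tested genes at 100 FPKM or more, 13.2% were called higher and 40.8% lower, with a median log2 change of -0.24 over the class. Among the 6881 genes at 25 to 100 FPKM, 14.5% were called higher and 28.9% lower. In the class of 5 to 25 FPKM the shares were close to each other, at 15% higher and 16.5% lower of 23257 genes. The direction there turned with the scaling, from 3490 higher and 3830 lower to 3968 higher and 3323 lower with scaling to recovered reads and 4170 higher and 3446 lower with limma-voom.

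The scarce classes leaned the other way. Of 16195 genes at 1 to 5 FPKM, 18.9% were called higher and 8.5% lower; these 8.5% were 1377 genes, and 874 without replicate 1 of the 50 mM group. Under 1 FPKM, 1041 of 1781 genes (58.5%) were called higher and 0 lower. In the lowest class the filter on low values fixes the direction, because a gene with a mean below 1 at 50 mM could pass it mainly through values at 150 mM. The 50 mM values enter both the class and the change, so these shares are a description and no test was made between classes.

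The lean by level depended on which libraries set the class. With classes from the mean of all 6 libraries, genes at 100 FPKM or more were called higher in 23.4% and lower in 28.7% of 1403 cases, and genes at 1 to 5 FPKM in 16.8% and 10.8% of 16563 cases. With classes from the 300 mM libraries, which enter no test, 27.6% of 1215 genes at 100 FPKM or more were called higher and 21.1% lower. There the direction in the most abundant class was the opposite of that by level at 50 mM. The 300 mM libraries are not neutral, since their read shares on called genes lay nearer to those at 150 mM. With classes from the 150 mM libraries, 476 of 1398 genes at 100 FPKM or more were called higher and 252 lower. Under 1 FPKM, 0 of 1399 were then called higher and 771 lower. At both ends of the range the lean thus turned with the group that set the class. A higher share of calls in abundant genes than in genes at 1 to 25 FPKM was found with all of these classes.

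The precision of a change was lowest in the scarce classes and best in the middle of the range. By level at 50 mM, the median standard error was 0.255 under 1 FPKM, with a median of 24 reads per library, and 0.2 at 1 to 5 FPKM, with 59 reads. It was 0.128 at 5 to 25 FPKM (225 reads), 0.115 at 25 to 100 FPKM (646 reads) and 0.132 at 100 FPKM or more (2059 reads). In the most abundant class more reads thus did not go with a smaller error. The share of genes whose interval lay inside 2-fold was 14.0%, 59.6%, 80.6%, 76.2% and 60.9% from the scarcest to the most abundant class. The offset of the fit shrinks changes most in the scarce classes, so their shares do not bound the change of FPKM.

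**Figure D3:**
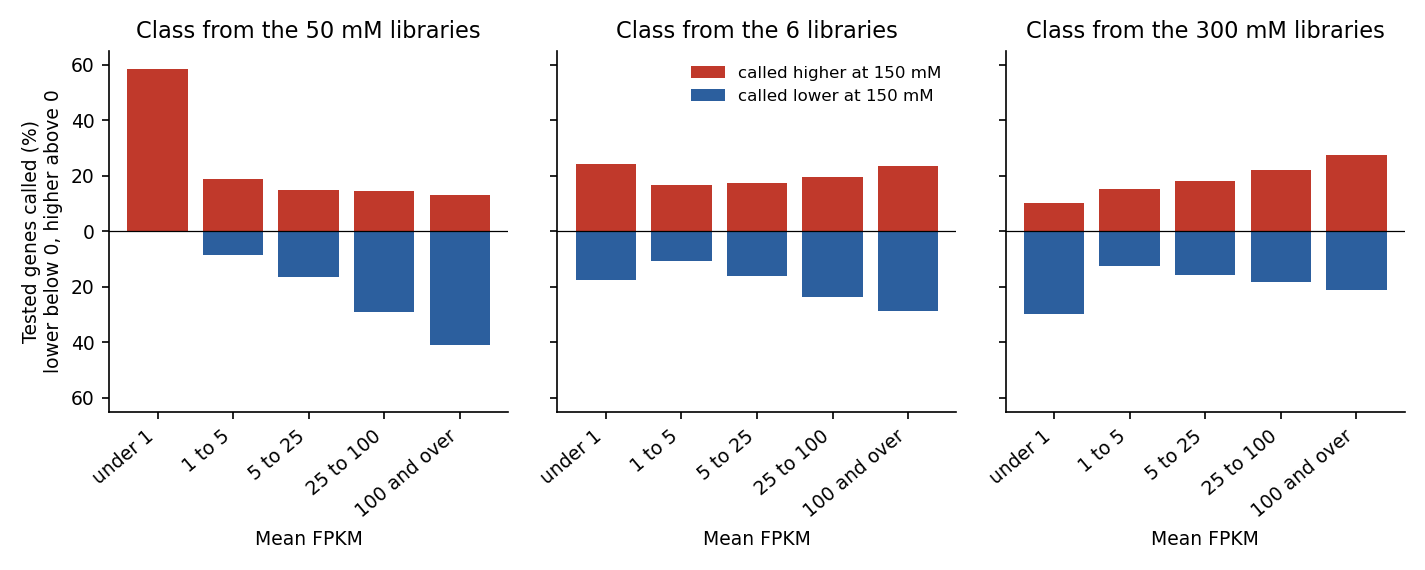
Percent of tested genes called higher (red, above 0) and lower (blue, below 0) at 150 mM in 5 classes of mean FPKM, with the class taken from the 50 mM libraries, from all 6 libraries compared, or from the 300 mM libraries. In the class of 100 and over, 40.8% were lower by the 50 mM level and 21.1% by the 300 mM level. Classes from the 150 mM libraries are not drawn.

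The list of the most abundant transcripts was partly exchanged. Of the 100 genes of highest mean FPKM at 150 mM and the 100 at 50 mM, 62 were shared. Between libraries of the same group 86 to 89 of the top 100 were shared at 150 mM and 91 to 93 at 50 mM, against 60 to 64 between a library at 150 mM and a library at 50 mM. Of the 38 genes only in the 150 mM list, 28 were called higher. Of the 38 only in the 50 mM list, 37 were called lower. Over all tested genes 17.7% were called higher and 15.7% lower. The lists were ranked on the same 6 libraries that the test compares. Genes found only in the 150 mM list were thus in effect chosen for being higher there, and the reverse for the 50 mM list. These calls therefore add no support. Genes in the 150 mM list stood as low as rank 2778 at 50 mM, and genes in the 50 mM list as low as rank 3375 at 150 mM. The 100 most abundant genes at 300 mM, chosen without these 6 libraries, included 28 called higher and 33 called lower, shares above the 17.7% and 15.7% of all tested genes. Among all tested genes at 100 FPKM or more at 300 mM, 27.6% were called higher and 21.1% lower, so the share called higher was close to that of abundant genes in general.

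Near the top of this list, a rise and a fall mirrored each other in rank. Gohir.A05G170100.v2.1, an ID of chromosome A05, had an FPKM of 4904, 4133 and 5906 at 150 mM, against 2057, 3098 and 2300.5 at 50 mM. Every value at 150 mM was above every value at 50 mM, as the rule that picked this gene required. It ranked 3 by mean level at 150 mM and 11 at 50 mM. The mean was 4981 ± 889 at 150 mM and 2485 ± 545 at 50 mM (SD, n = 3 each). The log2 change came to 1.01 with an SE of 0.205 (limma, adjusted p = 0.00819). At 300 mM its values were 4984, 3099 and 3057.

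Gohir.A02G039000.v2.1, an ID of chromosome A02, had an FPKM of 1485, 1811 and 1677 at 150 mM, against 2967, 4551 and 2708 at 50 mM. The groups did not overlap, and replicate 2 at 50 mM stood highest. It ranked 11 at 150 mM and 3 at 50 mM. The mean was 1658 ± 164 at 150 mM and 3409 ± 998 at 50 mM (SD, n = 3 each). The log2 change came to -1.01 with an SE of 0.211 (limma, adjusted p = 0.00945). At 300 mM its values were 1785, 4244 and 3290.5, which spanned both other groups. Both genes were taken as the most abundant among called genes changed at least 2-fold with groups that did not overlap. Both lay just inside that fold. Over 16 alternative fits the log2 change ran from 0.88 to 1.18 for the A05 ID and from -1.15 to -0.78 for the A02 ID. Neither thus kept a 2-fold change in every fit. Upland cotton carries an A and a D subgenome with near-identical gene copies. The sources used here do not say how reads shared by copies were counted, so the split between copies is uncertain for any single ID.

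Some genes went from near absence to a measurable level. A gene was taken as switched on when its FPKM was below 0.5 in each 50 mM library and at least 1 in each 150 mM library, and as switched off in the mirrored case. By this rule 178 genes were switched on (0.359% of tested genes) and 166 were switched off (0.335%). All 178 and all 166 were called in the limma fit, beside 33.4% of all tested genes. The rule sets apart the same 6 libraries that the fit compares, so these calls add no support. By the counts, switching was about as frequent in both directions, and it made up a small part of the 16548 calls. The counts depended on single libraries, since each library must meet the rule. Without replicate 2 at 150 mM there were 283 on and 314 off, without replicate 2 at 50 mM 257 off, and without replicate 3 at 50 mM 281 on. With off set below 0.1 in place of 0.5, 20 genes were switched on and 18 off.

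The switched genes were mostly of low level in the group where they were on. Those switched on had a median FPKM of 1.66, 1.63 and 1.90 in replicates 1 to 3 at 150 mM, and of 0.204, 0.193 and 0.266 at 50 mM. Those switched off had a median of 0.178, 0.230 and 0.135 at 150 mM, and of 2.11, 2.12 and 1.85 at 50 mM. The highest mean was 16.8 at 150 mM among genes switched on and 20.5 at 50 mM among genes switched off. A mean of at least 5 in the high group was reached by 6 genes switched on and 11 switched off. Their log2 changes had a median of 1.67 and -1.90.

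Read numbers show how far these genes were off. The median gene switched on had 114 reads over the 3 libraries at 150 mM and 11 over those at 50 mM, and the median gene switched off had 9 at 150 mM and 106 at 50 mM. In 12 genes switched on no read was found at 50 mM, against 15 to 159 reads at 150 mM. With a count of 0 taken as at most 3 reads over the group, these were at least 4.87-fold to 51.6-fold higher at 150 mM. In 12 genes switched off no read was found at 150 mM, against 34 to 155 at 50 mM, or at least 11.6-fold to 53.0-fold lower. A library of the high group held fewer than 10 reads in 17 genes switched on and 14 switched off. The fold bounds allow for counting error in the low group only. They take the reads of the high group as counted and leave out the scatter between libraries.

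**Figure D4:**
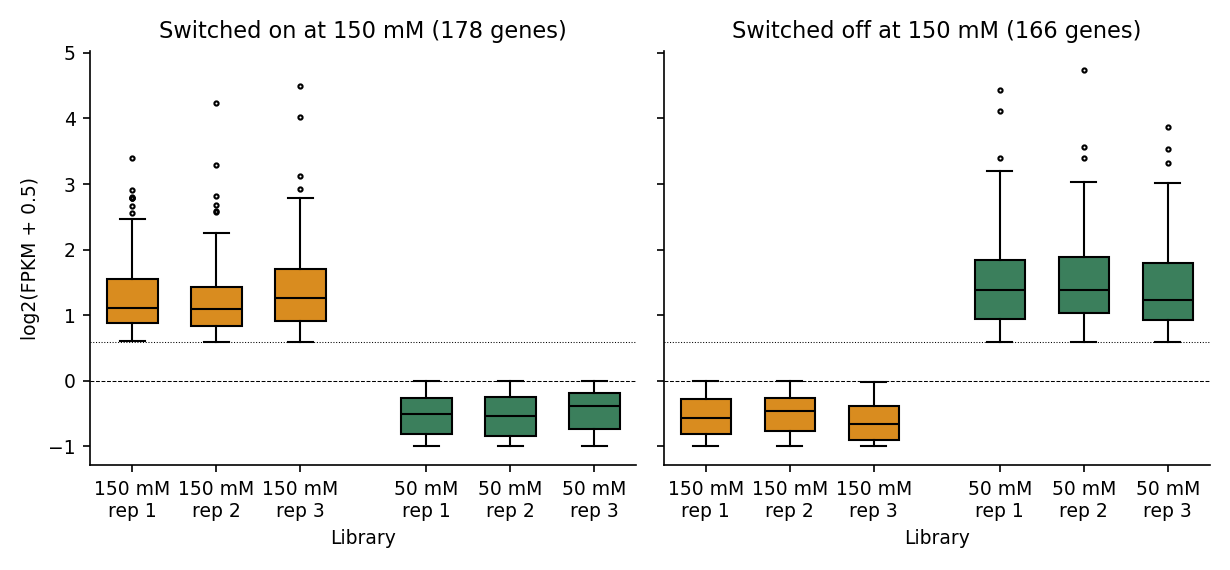
Distribution of log2(FPKM + 0.5) in each library for the 178 genes switched on (left) and the 166 switched off (right) at 150 mM, with the 150 mM libraries in orange and the 50 mM libraries in green. Boxes span the quartiles with the median as a line, whiskers reach 1.5 times the box, the dashed and dotted lines mark an FPKM of 0.5 and 1, and the gap between those lines is empty by the rule that chose the genes.

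The most abundant switched gene of each direction is given in full. Gohir.D12G124800.v2.1 had an FPKM of 10.02, 18.3 and 22.2 at 150 mM, resting on 81, 138 and 177 reads, against 0, 0 and 0.264 at 50 mM, resting on 0, 0 and 2 reads. It thus had no read in 2 of the 3 libraries at 50 mM and a clear signal in each library at 150 mM. The log2 change was 4.84 with an SE of 0.315 (limma, adjusted p = 0.000161). This size depends on the offset, since the low group is near 0 reads: it was 3.98 with a pseudocount of 1, 6.71 with 0.1 and 7.21 with limma-voom. The read rate at 150 mM was 193 times that at 50 mM (95% counting interval 53.1 to 1598, exact binomial). This interval pools the reads of the 3 libraries of a group and leaves out the scatter between them. At 300 mM its FPKM was 21.7, 5.48 and 6.34.

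Gohir.A11G064600.v2.1 was the counterpart among genes switched off. Its FPKM was 0.300, 0.161 and 0.455 at 150 mM, from 2, 1 and 3 reads, against 21.1, 26.3 and 14.1 at 50 mM, from 134, 168 and 88 reads. Each library at 150 mM stood far below each at 50 mM. The log2 change was -4.68 with an SE of 0.250 (limma, adjusted p = 0.000106), and it ran from -4.01 with a pseudocount of 1 to -5.73 with limma-voom. The read rate at 150 mM was 0.0150 times that at 50 mM (95% counting interval 0.00547 to 0.0329, again without the scatter between libraries). At 300 mM its FPKM was 0, 1.66 and 0.295. The recovered lengths of these genes were 411 bases for the D12 ID and 339 bases for the A11 ID, both short of the median of 1077 bases over tested genes.

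**Figure D5:**
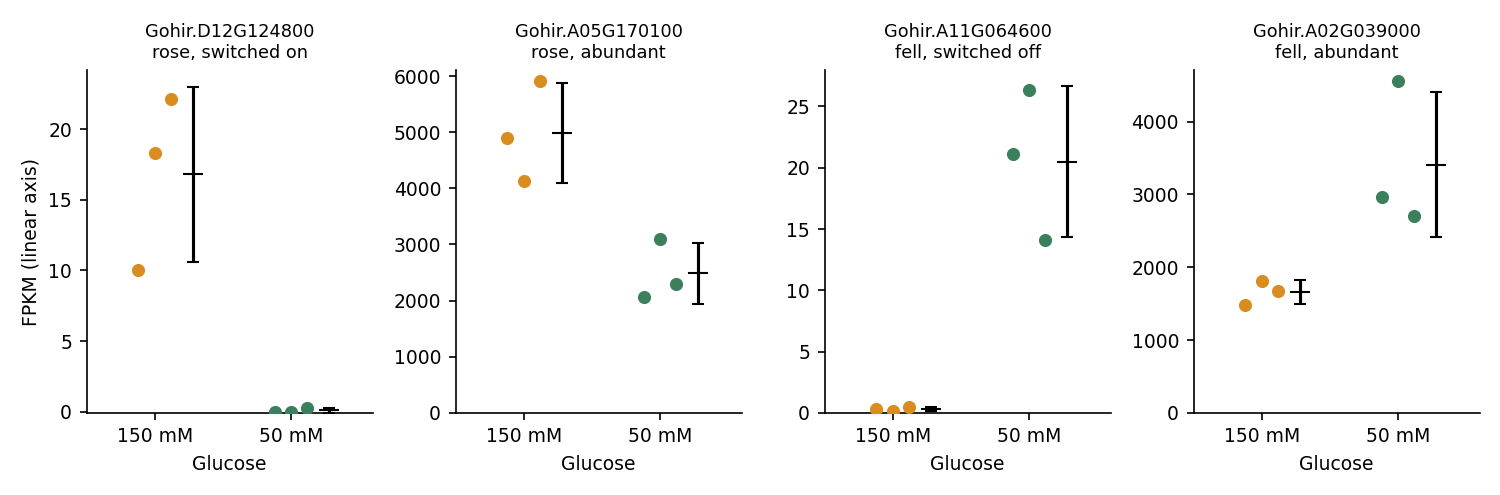
FPKM of the 4 named genes in each library on linear axes, with 150 mM in orange on the left and 50 mM in green on the right of each panel; bars give mean ± SD (n = 3). The values of the groups do not overlap in any of the 4 panels, and the switched genes are at or near 0 in all 3 libraries of their low group. Both features follow from the rules that picked these genes.

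Few switched genes were at 300 mM in the state they had at 50 mM, and most were in neither state by the rule. Of the 178 genes switched on, 62 had an FPKM of at least 1 in all 3 libraries at 300 mM, 2 were below 0.5 in all 3, and 114 met neither condition. Of the 166 switched off, 58 were below 0.5 in all 3 libraries at 300 mM, 5 were at 1 or more in all 3, and 103 met neither. The 300 mM libraries differed among themselves in these genes, with a median FPKM of 1.91, 0.974 and 1.06 for genes switched on and of 0.121, 0.567 and 0.415 for genes switched off. Replicate 1 at 300 mM stood closest to the 150 mM libraries in both sets.

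The switched genes were spread over the genome. Genes switched on were found on all 26 chromosomes, with 85 in the A and 80 in the D subgenome, and genes switched off likewise on all 26, with 68 in the A and 84 in the D subgenome. Chromosome D05 held the most in both sets, 11 switched on and 12 switched off. It also held 2661 of the 49529 tested genes, the most of any chromosome after A05 with 2895. Neighbours by ID number were both switched on in 3 pairs and both switched off in 4 pairs, and 2 further pairs held a gene switched on beside a gene switched off. There were 74876 neighbouring pairs of all IDs, which is not a rate for scattered switched genes. Whether switched genes lay side by side more often than scattered genes would was not tested. The remaining 13 genes switched on and 14 switched off were loci numbered outside the Gohir gene naming.

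Among all calls, the subgenomes showed like shares. In the A subgenome 18.5% of 22482 tested genes were called higher and 16.3% lower, and in the D subgenome 18.7% of 23200 were called higher and 15.8% lower. Over single chromosomes the share called ran from 31.7% on D08 to 38.0% on D05. Genes called higher made up 15.4% of tested genes on D08 and 20.9% on D11, the lowest and highest shares. For genes called lower the lowest share was 14.3% on D03 and the highest 17.3% on A01 and D05. Of the 3755 tested numbered loci, 6.98% were called higher and 11.6% lower, beside a median FPKM of 2.68 against 7.94 over all tested genes.

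Shares by gene length lay closer together than shares by level. Of genes under 500 bases, 14.3% were called higher and 15.6% lower, with a median of 55 reads per library. Of genes of 1000 to 2000 bases, 19.3% were called higher and 16.0% lower, with a median of 200 reads. The median log2 change was -0.02 in the shortest class and 0.03 in that of 1000 to 2000 bases.

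At the edge of the filter, 2159 genes had an FPKM of at least 1 in exactly 3 of the 6 libraries and were tested, and 1659 had it in exactly 2 and were not. Of the 2159, the 3 libraries were those at 150 mM for 813 genes and those at 50 mM for 589, and 1246 were called, beside 33.4% of all tested genes; nothing is read from this, since the same values set which genes enter. Those with all 3 in the same group had to differ to enter, and every switched gene is among them by its definition. An FPKM of at least 1 in all 6 libraries was found for 43543 genes.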

How the data were processed

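Per the labels' protocols, total RNA of the ovules was the input to NEBNext Ultra libraries for Illumina sequencing. The submitters' processing notes name HISAT2 as well as featureCounts 1.5.0-p3. Not given in the sources used here are the genome build, annotation and strand setting. The authors deposited 1 table of FPKM values per library, with 80970 rows, 75376 of them Gohir IDs. The name FPKM is read from the form of the values. Whole reads (tolerance 0.001 read) were recovered for all 68279 rows with a value above 0, trying lengths under 60000 bases. The shortest length that gave whole reads was taken, so reads and length of a scarce row may be too small by a common factor. Of the lengths of Gohir IDs with at least 100 reads, 95.5% were divisible by 3, so these are taken as coding lengths. Other rows were not checked in this way. The library-size term of the authors was 0.984 to 1.05 times the recovered reads in the 6 libraries. No pair of libraries of a group agreed within sampling noise (chi-square per degree of freedom 4.44 to 17.1). None of the IDs matched the 99454 genes of the reference table (0 matches).

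Genes reaching an FPKM of 1 in 3 or more of the 6 libraries were fitted as log2(FPKM + 0.5) in limma 3.58.1 (moderated variance, trended and robust; R 4.3.3 and statmod 1.5.0), with glucose as the only term. Adjustment over all genes tested followed Benjamini and Hochberg. Tests were two-sided. The scripts were tested on simulated data. Level classes and switches were counted without a test. At most 2 IDs that rose and 2 that fell are named: the called switched gene of highest level with at least 30 reads in each library of its high group, and the most abundant called gene changed at least 2-fold with groups apart. The comparison, classes and rules were chosen with earlier results of these data known. Alternatives covered the libraries fitted, pseudocount, filter, scaling, variance model, recovered reads, replicate block, single libraries, class source and switch thresholds.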

Additional observations from a re-analysis of the deposited data

How the results depend on the processing

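Of 280 alternative values of the counts, 254 were within 1.5 times the reported ones. In 16 alternative fits 0 genes were called in the opposite direction. These fits reuse the libraries of the main fit, so opposite calls were unlikely from the start. The number of called genes ran from 12333 to 15005 without 1 library, and the 4 named genes stayed called in each fit, with limma adjusted p of up to 0.0360 for Gohir.A02G039000.v2.1 and 0.0340 for Gohir.A05G170100.v2.1. The share of calls that were higher was 53.0%. It was 58.3% with scaling to recovered reads and 58.4% with limma-voom, but 50.3% with median-ratio scaling (8289 higher and 8179 lower) and 50.3% with a filter at an FPKM of 5. With a filter at an FPKM of 5, 1991 genes rose at least 2-fold, and by level at 50 mM 32 were called higher under 1 FPKM, and 1502 higher and 0 lower at 1 to 5; fewer genes enter there. With no filter 1818 were called higher and 490 lower under 1 FPKM. With classes from the 6 libraries 163 were called higher and 118 lower under 1 FPKM, and 328 higher at 100 or more. With classes from the 300 mM libraries 204 were higher and 602 lower under 1 FPKM, 1189 lower at 25 to 100, and 335 higher and 256 lower at 100 or more. Genes switched on and off numbered 20 and 18 with off below 0.1, 3 and 5 with on at 5 or more, and 12 and 12 with off at 0. Leaving out 1 library removes a condition, so these counts could only grow: to 220 to 283 on and 193 to 314 off. They were 283 on and 314 off without replicate 2 at 150 mM, 257 off without replicate 2 at 50 mM, and 281 on without replicate 3 at 50 mM. Without 1 library, 0 to 2 genes under 1 FPKM were called lower, and 874 to 1345 at 1 to 5 FPKM, the lowest without replicate 1 at 50 mM. With the replicate number as a block 12777 genes were called. No pairing by number was seen: deviations from the group means correlated at -0.121, -0.287 and -0.0892 between libraries of numbers 1, 2 and 3. No library correlated best with its own number. With 3 libraries per group these correlations cannot exclude a shared culture or batch. Depth limits the lowest class, where the median gene had 24 reads per library.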
